A study of Mus musculus with 3 samples.

Results

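Sbno2 and the Vmp1 gene with its overlapping microRNA Mir21 were examined as 3 genes in 2 windows of the mouse genome (build mm9), 75 kb around Sbno2 on chromosome 10 (79505000 to 79580000) and 125 kb around Vmp1 and Mir21 on chromosome 11 (86385000 to 86510000). They were chosen by measured values of these libraries. Each window holds a phospho-STAT3 site among the 8 strongest of the genome, and the Sbno2 window also holds a region with far fewer H3K4me3 reads in STAT3-deficient cells. Those values are therefore given as a description. Together the windows held 7 of the 15685 H3K4me3 regions and 12 of the 27067 phospho-STAT3 sites called over the genome.

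Chromatin immunoprecipitation with sequencing (ChIP-seq) was done on mouse CD4 T cells sorted as naive cells and grown for 72 h under Th17-polarising conditions (anti-CD3 and anti-CD28, IL-6 at 10 ng/ml, TGF-b at 2.5 ng/ml, and antibodies that block IL-2, IL-4 and IFN-g), then given IL-6 again for 1 h. STAT3-deficient cells were Stat3fl/fl FoxP3-GFP, CD4-Cre, in which Cre under control elements of Cd4 is active in T cells and deletes the floxed Stat3 allele. Wild-type cells were Stat3fl/fl FoxP3-GFP without Cre, so both genotypes carried the floxed allele and the FoxP3-GFP reporter. There were 3 libraries, 1 each for H3K4me3 in STAT3-deficient cells (12075963 reads), H3K4me3 in wild-type cells (12281399 reads) and STAT3 phosphorylated on Ser727 in wild-type cells (10127075 reads). Each genotype and antibody had a single library, so the genotypes are compared without a test, and all 95% intervals below are exact and cover counting error only. No phospho-STAT3 library of STAT3-deficient cells and no input library was analysed here. Stat3 and the marker genes of T cells were not placed on mm9, so neither the deletion nor the cell type was checked in these reads. Fewer cells with the mark and less mark per cell cannot be told apart in such bulk libraries.

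STAT3 is a transcription factor that is phosphorylated downstream of the IL-6 receptor, moves to the nucleus and binds DNA, and in CD4 T cells it is needed for the IL-17-producing Th17 state. Trimethylation of histone H3 on lysine 4 (H3K4me3) marks the start of active genes, mostly on the transcribed side of the start. Sbno2 encodes a transcriptional co-regulator of the strawberry notch family, known in mouse macrophages as a gene induced by IL-10 through STAT3. Vmp1 encodes a membrane protein of the endoplasmic reticulum needed to form autophagosomes. Mir21, called Mir21a in RefSeq, lies at the far end of Vmp1 and has its own primary transcript. Its product miR-21 represses mRNAs such as that of Pdcd4, and in human myeloma cells STAT3 is known to induce it through sites upstream of the microRNA.

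The sequences that the data bear on come from RefSeq (GRCm38.p6), a later build than that of the reads, and their coordinates were not carried over to mm9. The microRNA whose surroundings carried the STAT3 sites is shown first, with bases 2 to 8 (the seed) of each mature form in capitals, and then as the 92-base hairpin with both mature forms in capitals. Among 1738 mature mouse microRNAs in the table, the seed of miR-21a-5p was shared with miR-21c alone and that of miR-21a-3p with no other.
miR-21a-5p, chr11:86584120-86584141 (- strand): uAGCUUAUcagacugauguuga
miR-21a-3p, chr11:86584082-86584103 (- strand): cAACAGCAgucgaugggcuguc
Mir21a hairpin, chr11:86584067-86584158 (- strand): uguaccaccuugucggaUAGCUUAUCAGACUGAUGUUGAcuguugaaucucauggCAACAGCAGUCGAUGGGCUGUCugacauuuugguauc

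RefSeq gives 3 starts for Sbno2. The second lies 1515 bp and the third 27263 bp inside the gene from the first, and the third is the one whose spacing matches the H3K4me3 region and the STAT3 site described below. Of the 3 starts of Vmp1, the first lies 238 bp from the start of the oppositely directed Ptrh2, a mitochondrial peptidyl-tRNA hydrolase gene, and the others lie 313 bp and 12655 bp inside Vmp1. The 250 bases before each Sbno2 start and before the first Vmp1 start are printed 5′ to 3′ along the gene, with matches to 3 STAT-type motifs in capitals. The motifs searched were TTCNNNGAA, TTCNNGAA and TTCNNNNGAA, which read the same on both strands, and no matches overlapped.
Sbno2 start 1, chr10:80102703-80102952 (- strand): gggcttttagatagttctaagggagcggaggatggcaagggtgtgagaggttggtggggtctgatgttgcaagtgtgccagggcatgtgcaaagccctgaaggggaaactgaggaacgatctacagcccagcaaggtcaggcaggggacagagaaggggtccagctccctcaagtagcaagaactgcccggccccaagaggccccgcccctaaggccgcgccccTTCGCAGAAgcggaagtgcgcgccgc
Sbno2 start 2, chr10:80101188-80101437 (- strand): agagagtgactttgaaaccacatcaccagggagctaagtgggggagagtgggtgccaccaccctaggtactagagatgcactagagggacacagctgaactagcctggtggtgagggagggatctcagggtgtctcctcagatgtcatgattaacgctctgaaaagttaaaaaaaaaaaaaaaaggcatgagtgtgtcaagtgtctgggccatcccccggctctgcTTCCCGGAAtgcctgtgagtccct
Sbno2 start 3, chr10:80075440-80075689 (- strand): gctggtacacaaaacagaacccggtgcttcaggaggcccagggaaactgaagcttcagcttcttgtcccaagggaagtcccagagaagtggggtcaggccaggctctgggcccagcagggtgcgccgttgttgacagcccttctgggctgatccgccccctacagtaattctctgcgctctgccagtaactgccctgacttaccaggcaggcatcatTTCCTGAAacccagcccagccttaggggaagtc
Vmp1 start 1, chr11:86683837-86684086 (- strand): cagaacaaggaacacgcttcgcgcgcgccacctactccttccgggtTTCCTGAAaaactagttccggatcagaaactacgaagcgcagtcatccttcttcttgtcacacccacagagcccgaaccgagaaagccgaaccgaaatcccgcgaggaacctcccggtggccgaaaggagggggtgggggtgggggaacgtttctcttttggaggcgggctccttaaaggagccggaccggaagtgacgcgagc

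Every one of these 4 sequences held 1 match. Sbno2 start 1 held TTCGCAGAA at -26 to -18, counted from the start of transcription, and Sbno2 start 2 held TTCCCGGAA at -24 to -16. Sbno2 start 3 held TTCCTGAA at -33 to -26, and Vmp1 start 1 held the same 8 bases farther out, at -204 to -197. The other starts of Vmp1 held none of the 3 motifs. The 250 bases held 11, 3 and 5 CpG dinucleotides at Sbno2 starts 1, 2 and 3, against 23 at Vmp1 start 1. Of all 32851 start windows of 300 bp in the table, 8.30% held TTCNNNGAA, 8.52% TTCNNGAA, 6.95% TTCNNNNGAA and 21.6% at least 1 of them. A match in letters does not show binding. The sequences under the other STAT3 sites in Vmp1 and around Mir21 are not shown, since no mm9 genome was used here.

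Which H3K4me3 region belongs to which start was read from the order and strand of the genes in RefSeq, where Sbno2 lies between Gpx4 and Stk11 and is transcribed towards lower coordinates. In the order of the reads on mm9, a region from 79516400 to 79517599 lay on the side of Gpx4, which encodes an enzyme that removes lipid peroxides. A region from 79535200 to 79538199 lay inside Sbno2, and a region from 79564000 to 79565799 lay at its first start. A pair of regions on the side of Stk11, the gene of the kinase LKB1, ran from 79577800 to 79578199 and from 79579400 to 79581199, the last past the end of the window and counted whole. The spacing fitted this order. The weak STAT3 site in the first-start region and the strong site at the edge of the internal region were 27125 bp apart on mm9, within 138 bp of the distance between Sbno2 starts 1 and 3 on GRCm38.p6. In the other window, a region from 86395600 to 86401799 covered the Mir21 position (near 86397600), and a region from 86496800 to 86498599 lay at the start that Vmp1 shares with Ptrh2. The STAT3 site in that start region was 99966 bp from the Mir21 position, within 288 bp of the distance between the hairpin and Vmp1 start 1 on GRCm38.p6. Vmp1 is transcribed towards lower coordinates, so that the strongest STAT3 site and the Vmp1 start both lie upstream of Mir21.

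The internal Sbno2 region was the region of both windows whose H3K4me3 differed most between genotypes. It held 57 reads in the STAT3-deficient library, against 286 reads in the wild-type library. Scaled so that the median ratio of all regions with at least 50 H3K4me3 reads (marked regions) is 0, this was a log2 ratio of -2.62 (95% interval -3.06 to -2.21), or 6.16-fold lower (4.62 to 8.34) in STAT3-deficient cells. By library totals the log2 ratio was -2.30 (-2.74 to -1.89). Over the genome, 1.16% of 10971 marked regions were lower by the size rule (at least 2-fold, with an interval that excludes no change) and 1.01% were higher. Of the 6 marked regions in both windows, the internal Sbno2 region was lower and none was higher, but the lower call helped to choose the gene and nothing is read from the count. Among all marked regions its ratio ranked 7 from the lowest, and the upper bound of its interval ranked 2.

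**Figure D1:**
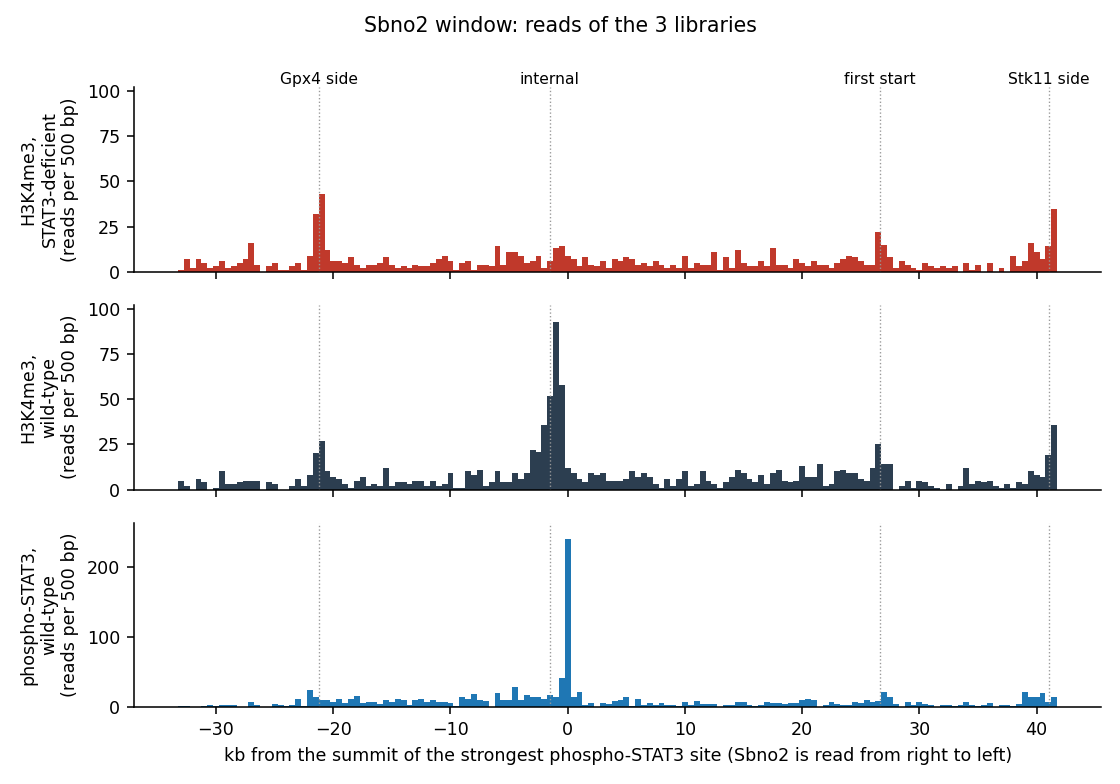
Reads per 500 bp across the Sbno2 window, plotted against the distance in kb from the summit of the strongest phospho-STAT3 site, for H3K4me3 in STAT3-deficient cells (top), H3K4me3 in wild-type cells (middle) and phospho-STAT3 in wild-type cells (bottom). The H3K4me3 block left of the site, 286 reads in wild-type cells, is reduced to 57 reads in STAT3-deficient cells, while the peaks of the Gpx4 side, the first start and the Stk11 side appear in both libraries.

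The first start of Sbno2 showed no difference of that size. Its region held 48 reads in STAT3-deficient cells, against 60 reads in wild-type cells, a log2 ratio of -0.62 (-1.20 to -0.05). Scaled by library totals instead it was -0.30 (-0.88 to 0.27). For comparison, reads outside regions and sites had scaled log2 ratios of -0.40 in the Sbno2 window and -0.39 in the Vmp1-Mir21 window. By library totals these were -0.08 (-0.25 to 0.09) and -0.07 (-0.25 to 0.12), so their distance from 0 depended on the scaling. The neighbours' regions did not pass the size rule either. On the Gpx4 side 86 STAT3-deficient reads stood against 55 wild-type reads, a log2 ratio of 0.35 (-0.16 to 0.86). By library totals it was 0.67 (0.16 to 1.18), which excludes 0 and is still below 2-fold. The wide region of the Stk11 side held 73 STAT3-deficient and 82 wild-type reads, a log2 ratio of -0.46 (-0.94 to 0.01), and the narrow one 20 and 16 reads, too few for a marked region. Inside the window the comparison needs no scaling. The ratio of STAT3-deficient to wild-type reads was 0.199 in the internal region and 0.80 at the first start, 4.01-fold apart (2.42 to 6.62). Against the Gpx4 side it was 7.85-fold lower (4.92 to 12.5), and against the wide Stk11 region 4.47-fold lower (2.86 to 6.98).

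The internal region stood at opposite ends of the order in the 2 genotypes. By H3K4me3 reads per kb it was the lowest of the 7 regions in STAT3-deficient cells, at 19.0, and the highest in wild-type cells, at 95.3. The other 6 regions spanned 26.7 to 74.4 reads per kb in STAT3-deficient cells and 33.3 to 47.2 in wild-type cells. Of all H3K4me3 reads in the 5 regions of the Sbno2 window, the internal one held 20.1% (15.6 to 25.2) in STAT3-deficient cells and 57.3% (52.8 to 61.7) in wild-type cells. The STAT3-deficient reads that were left were above the surroundings, since the window outside regions and sites held 9.10 reads per kb in STAT3-deficient cells and 9.78 in wild-type cells. With that background subtracted, 29.7 STAT3-deficient and 257 wild-type reads were left, a log2 ratio of -3.41.

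Phospho-STAT3 sat at the upstream edge of this block. The site ran from 79538000 to 79538499 with its summit at 79538239. Its densest 200 bp held 205 reads (exact Poisson interval 178 to 235), 20.7-fold over the local density of 9.92 reads, and its excess over that density ranked 8 of 27067. Reads came from both strands, 119 forward and 134 reverse within 300 bp of its middle. Their median positions were 108 bp apart, against a median of 101.5 bp (quartiles 84.5 and 118) over 677 strong sites sampled evenly from those in the top 25% by excess. The other 2 sites of the window were weak. One, in the first-start region from 79565250 to 79565449, held 18 reads (10.7 to 28.4) at 6.82-fold and ranked 19217. The other, beside the narrow Stk11 region, held 19 reads at 5.43-fold and ranked 18930.

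H3K4me3 lay on 1 side of the strong site, the transcribed side. In the 2 kb downstream of the summit there were 41 STAT3-deficient and 238 wild-type reads, and in the 2 kb upstream 22 and 23. The log2 ratios were -2.83 (-3.35 to -2.35) downstream and -0.36 (-1.27 to 0.55) upstream. The difference held across the block: wild-type reads outnumbered STAT3-deficient reads in all 15 of its 200 bp bins, and the densest of these held 5 STAT3-deficient and 45 wild-type reads. Within the first kb downstream of the summit the log2 ratio was -2.23 (-2.87 to -1.64), with 30 STAT3-deficient and 115 wild-type reads. In the next kb it was -3.78 (-4.82 to -2.89), with 11 and 123 reads. Of these 2 kb, the nearer one held more of the STAT3-deficient reads. The ratio did not keep falling towards the far end of the block. The 500 bp bins centred at 79535750 and 79535250 held 9 and 6 STAT3-deficient reads, against 21 and 22 wild-type reads. Their log2 ratios were -1.52 (-2.83 to -0.33) and -2.17 (-3.76 to -0.82).

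**Figure D2:**
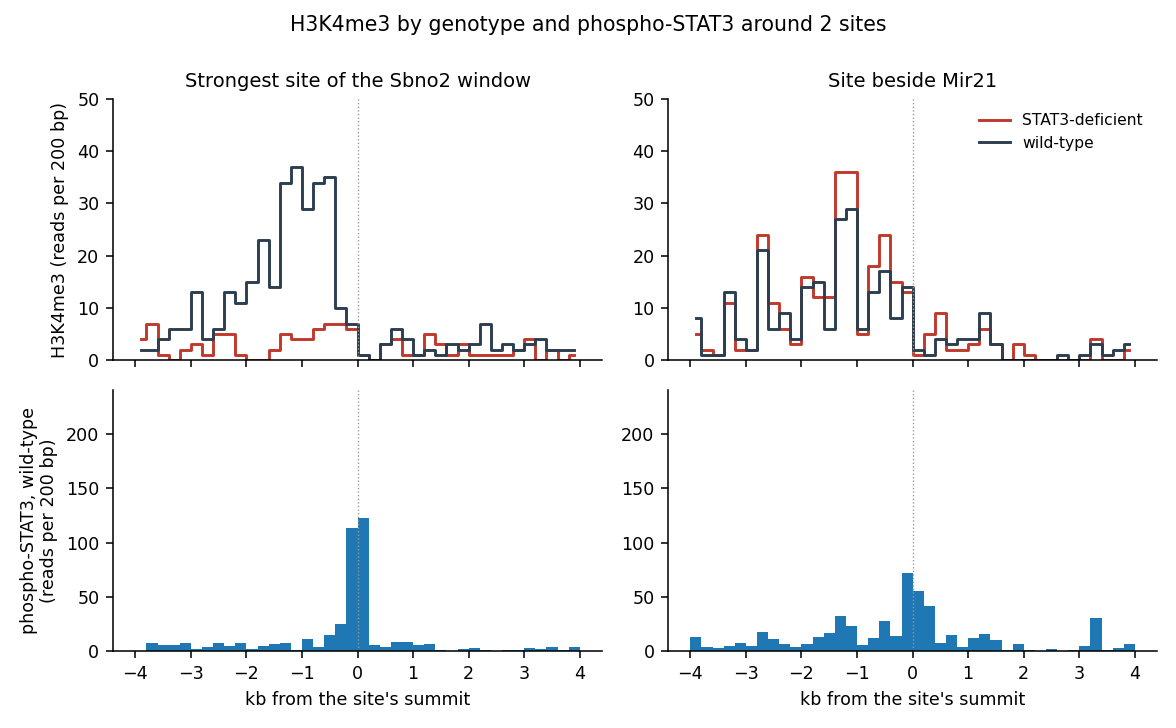
H3K4me3 reads per 200 bp in STAT3-deficient (red) and wild-type (dark) cells (top) and phospho-STAT3 reads per 200 bp in wild-type cells (bottom), against the distance in kb from the summit, for the strongest Sbno2 site (left) and the site beside Mir21 (right). At both sites H3K4me3 lies mostly left of the summit, the transcribed side. At the Sbno2 site 41 STAT3-deficient and 238 wild-type reads lie in the 2 kb on that side, and at the Mir21 site 187 and 149.

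The region around Mir21 showed no difference in the mark that passed the size rule. It was 6200 bp wide, rank 39 of the marked regions by width, and held 301 reads in the STAT3-deficient library, against 266 reads in the wild-type library. The log2 ratio was -0.12 (-0.36 to 0.13), and by library totals 0.20 (-0.04 to 0.45), so its sign depended on the scaling and both intervals included 0. Under both scalings the interval excluded a 2-fold difference in either direction. The densest 200 bp, upstream of the microRNA, held 36 STAT3-deficient and 31 wild-type reads. In steps of 1 kb through the region, the log2 ratio ran between -0.60 and 0.13 in the 6 full steps, and each interval included 0. The step with most reads, from 86398600 to 86399599, held 102 STAT3-deficient and 84 wild-type reads, a log2 ratio of -0.02 (-0.45 to 0.42). The ratio of STAT3-deficient to wild-type reads was 5.68-fold lower (4.05 to 8.03) in the internal Sbno2 region than in the Mir21 region. Phospho-STAT3 lay on both flanks of the microRNA, with 118 reads in the downstream end step of the region and 178 in the step that holds the highest site.

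At the shared start of Vmp1 and Ptrh2, 134 STAT3-deficient reads stood against 85 wild-type reads. The scaled log2 ratio was 0.36 (-0.04 to 0.77). By library totals it was 0.68 (0.28 to 1.09), which excludes 0 and is still below the 2-fold of the size rule. The Mir21 region held 69.2% (64.6 to 73.5) of the window's H3K4me3 region reads in STAT3-deficient cells and 75.8% (71.0 to 80.2) in wild-type cells. Its ratio was 1.39-fold lower (1.00 to 1.94) than that of the Vmp1 start, a difference at the limit of counting error. The RefSeq start of Vmp1 that lies 12655 bp inside the gene had no H3K4me3 region in its part of the window.

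**Figure D3:**
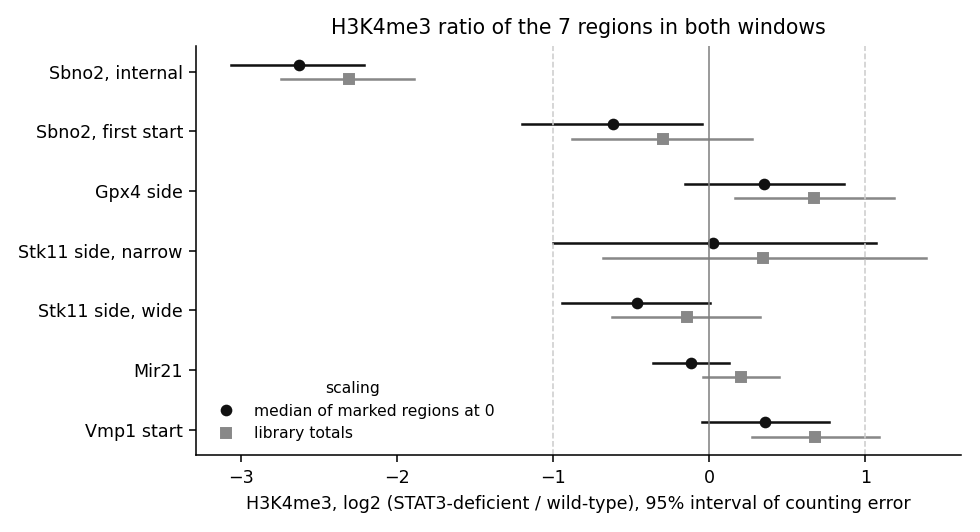
H3K4me3 log2 ratio (STAT3-deficient over wild-type) of the 7 regions of both windows with its exact 95% interval, scaled by the median of marked regions (black circles) and by library totals (grey squares). The dashed lines mark 2-fold. The internal Sbno2 region, at -2.62 and -2.30, lies apart from the other 6, whose values span -0.62 to 0.36 with the first scaling.

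**Figure D4:**
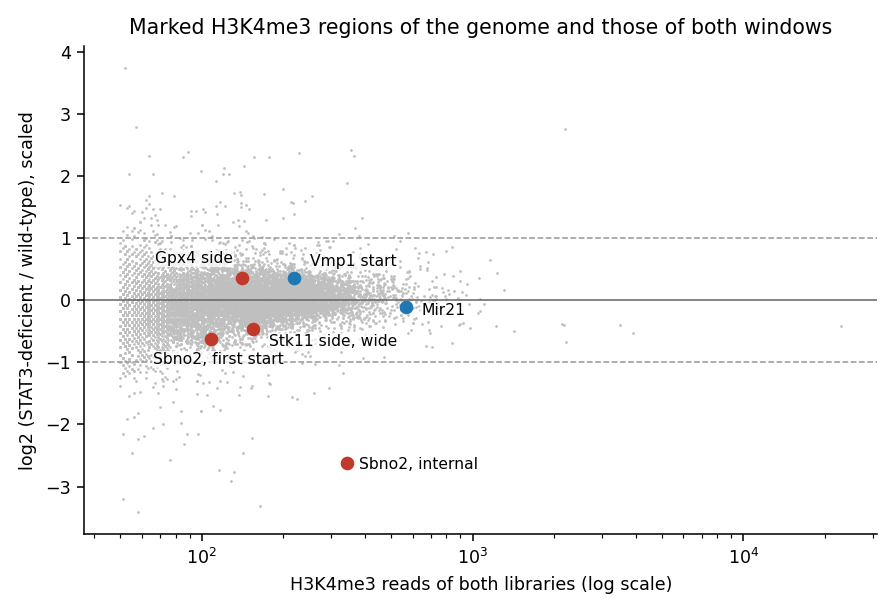
Each grey point is a marked H3K4me3 region of the genome, placed by its reads in both libraries (log axis) and its scaled log2 ratio (STAT3-deficient over wild-type). The dashed lines mark 2-fold. Red points are the marked regions of the Sbno2 window and blue points those of the Vmp1-Mir21 window. The internal Sbno2 region, with 57 STAT3-deficient and 286 wild-type reads, is at -2.62, and the Mir21 region is at -0.12.

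The Vmp1-Mir21 window held 9 phospho-STAT3 sites in 125 kb, and the Sbno2 window 3 in 75 kb. Phospho-STAT3 reads per kb were nearly equal, 18.9 and 18.3 over the whole windows. The strongest site lay inside Vmp1, from 86437750 to 86438249, 40.4 kb upstream of Mir21. Its densest 200 bp held 225 reads (197 to 256), 28.8-fold over the local density, and it ranked 4 of 27067 by excess. This site stood alone: the nearest H3K4me3 region was 35951 bp away, and within 1 kb there were 8 STAT3-deficient and 9 wild-type H3K4me3 reads, a log2 ratio of -0.47 (-2.04 to 1.08). A difference in H3K4me3 was not detectable at this depth there. Its reads were 137 forward and 130 reverse, with medians 117 bp apart.

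Around Mir21, 5 strong sites lay between 10.1 kb downstream and 7.27 kb upstream of the microRNA. The highest, from 86400200 to 86400849, had its summit 2.82 kb upstream of Mir21, inside the H3K4me3 region, and held 89 reads (71.5 to 110) at 6.18-fold, rank 412. Upstream of it, the site from 86404750 to 86404999 held 39 reads at 3.69-fold. Downstream of the microRNA, the sites 2.72 kb, 6.67 kb and 10.1 kb away held 43, 40 and 61 reads, at 3.50-fold, 4.11-fold and 10.9-fold. The local density behind these folds was high around Mir21, 14.4 reads per 200 bp at the highest of the 5 sites, against 7.82 at the strongest Vmp1 site. A further strong site, 68.7 kb upstream of Mir21, held 40 reads at 14.6-fold, and a weak one beside it held 17 reads. At the Vmp1 start, the site from 86497400 to 86497749 held 23 reads (14.6 to 34.5) at 13.1-fold. Its excess of 21.2 reads, rank 10646, was under the 26.1 that define a strong site, which 6768 sites reached. The excess of 28.4 of the site at 86404750, rank 5538, was over it.

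**Figure D5:**
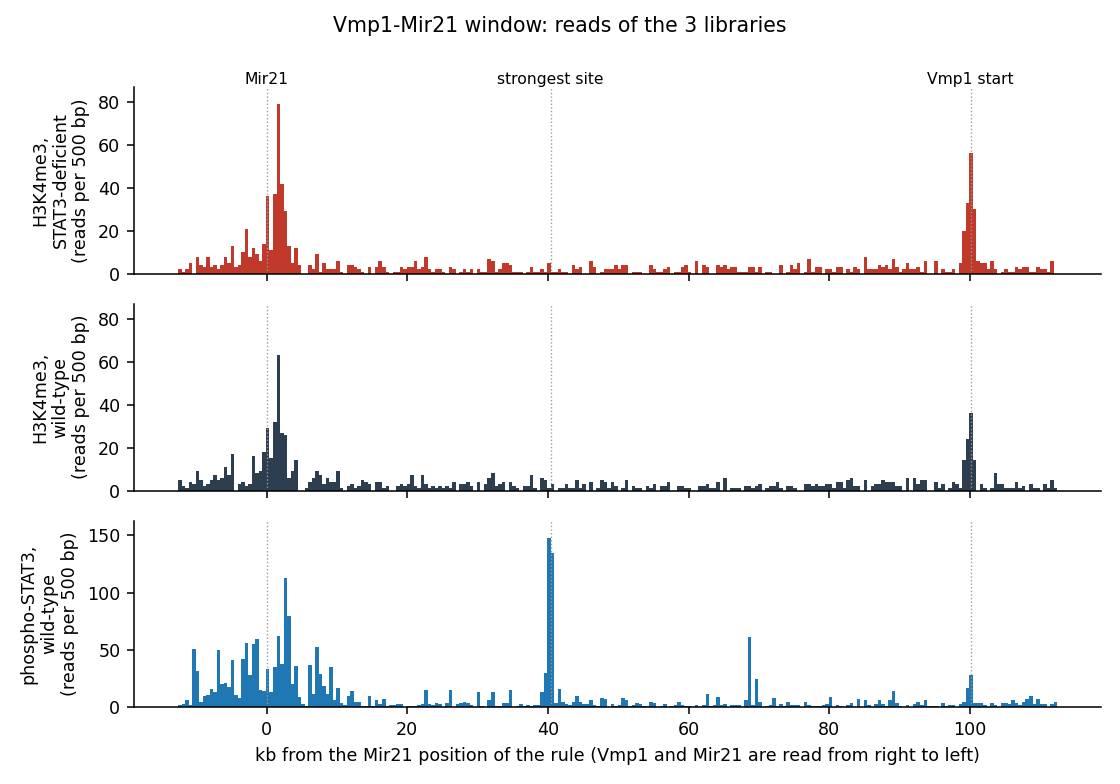
Reads per 500 bp across the Vmp1-Mir21 window, plotted against the distance in kb from the Mir21 position, for H3K4me3 in STAT3-deficient cells (top), H3K4me3 in wild-type cells (middle) and phospho-STAT3 in wild-type cells (bottom). Positive distances are upstream of Mir21. H3K4me3 peaks beside Mir21 and at the Vmp1 start in both genotypes, and the strongest phospho-STAT3 site, 225 reads in 200 bp, lies 40.4 kb upstream where H3K4me3 is low.

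In all, 8 of the 12 sites were strong, 1 in the Sbno2 window and 7 in the Vmp1-Mir21 window. Over the genome there were 0.256 strong sites per 100 kb, and 40 of 21124 consecutive stretches of 125 kb (0.189%) held at least 7. At least 1 strong site, as in the Sbno2 window, was held by 4473 of 35213 stretches of 75 kb (12.7%). The windows were chosen for strong STAT3 sites, so both shares are descriptions. Counted as reads, the Vmp1-Mir21 window held 2361 phospho-STAT3 reads against a median of 362 per stretch of that length, and its H3K4me3 region around Mir21 held 558, rank 7 among marked regions. The Sbno2 window held 1373 phospho-STAT3 reads against a median of 213 per stretch of 75 kb. The 2 windows differed in what lay outside regions and sites. There the Vmp1-Mir21 window had 4.62 (STAT3-deficient) and 4.91 (wild-type) H3K4me3 reads per kb, close to the genome means of 4.57 and 4.65. It had 9.24 phospho-STAT3 reads per kb against a genome mean of 3.83. These genome means count all reads over whole chromosomes, regions and sites included, so the comparison is not like for like. In the Sbno2 window all 3 libraries were raised outside regions and sites, at 9.10, 9.78 and 12.3 reads per kb in the same order. The part of this raised background in the read counts was not tested.

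Within 1 kb of the sites, H3K4me3 was lower by the size rule at the strong Sbno2 site alone among the sites of both windows that had at least 50 such reads. A site of the Vmp1-Mir21 window just short of that many reads is given below. At the strong Sbno2 site there were 39 STAT3-deficient and 128 wild-type reads, a log2 ratio of -2.01 (-2.57 to -1.48). With 500 bp either side the 18 STAT3-deficient and 30 wild-type reads gave -1.03 (-1.96 to -0.14), and with 2 kb either side the ratio was -2.35. Of 9813 sites in the genome with at least 50 H3K4me3 reads within 1 kb, 2.14% were lower by the size rule and 0.571% were higher. Among the 100 sites of largest excess, 34 had that many H3K4me3 reads, and 7 of these 34 (20.6%) were lower and 0 higher. The Sbno2 site was among the 7, with 2 of the 34 at a lower ratio. The remaining 66, including the strongest Vmp1 site, had too little H3K4me3 to be compared, and 53 of the 100 lay over 10 kb from any H3K4me3 region. At the site beside Mir21, 96 STAT3-deficient and 70 wild-type reads gave a log2 ratio of 0.16 (-0.30 to 0.63). At the Vmp1 start it was 0.39 (-0.01 to 0.80), with 137 and 85 reads, and at the weak site of the first Sbno2 start -0.52 (-1.12 to 0.07), with 47 and 55. At the weak site beside the narrow Stk11 region it was 0.27 (-0.50 to 1.06), with 37 and 25.

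The strong site 2.72 kb downstream of Mir21, beyond the end of the H3K4me3 region, differed with the distance counted. Within 1 kb it had 50 STAT3-deficient and 22 wild-type reads, a log2 ratio of 0.89 (0.14 to 1.68), which does not pass the size rule with this scaling and does by library totals (1.21). With 500 bp either side the 29 STAT3-deficient and 4 wild-type reads gave 2.56 (1.05 to 4.53), and with 2 kb either side the 76 and 50 reads gave 0.31 (-0.23 to 0.85), an interval that includes 0. Most of the difference lay in the kb downstream of its summit, with 33 and 6 reads. This place is singled out because its values were seen. The site next to it, 6.67 kb downstream of Mir21, had 18 STAT3-deficient and 31 wild-type reads within 1 kb, just under the 50 reads needed for a call. Its log2 ratio was -1.08 (-2.01 to -0.20), past 2-fold. Without the read shift, 19 and 31 reads gave -1.01 (-1.91 to -0.14), which passes the size rule. By library totals it was -0.76 (-1.68 to 0.12), which does not.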

How the data were processed

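The authors deposited aligned reads, 1 line per read with position and strand, with no value for any region. The genome build was mm9, and the tool SICER is named, per the submitters' processing notes. The aligner is not given in the sources used here. Reads spanned 25 bp, and each position and strand appears at most once in a library (duplicates are absent). A 200 bp window can therefore hold no more reads than its positions on both strands. The Poisson intervals, folds and ranks of the strongest sites do not allow for this limit.

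Reads were moved 75 bp towards the fragment centre. H3K4me3 regions were called on both genotypes pooled, from 200 bp windows with at least 12 reads (Poisson threshold 1e-05), joined within 600 bp. Phospho-STAT3 sites were 200 bp windows, moved by 50 bp, holding 10 reads or more, reads on both strands and a Poisson threshold of 1e-08 against the larger of genome-wide and 10 kb local density. The excess is the highest window count minus that expectation. The local density includes the site's own reads, so a fold over it is not a fold over the surroundings. Ratios between genotypes were scaled to the median of marked regions, a shift of 0.32 log2 units from library totals that hides any change common to all of them. Intervals are exact (Clopper-Pearson, Poisson or conditional odds ratio) at 95%, and reads carry no molecular identifiers. The size rule and the site calling were tried on simulated data with counting error alone and isolated sites on an even background. Variation between libraries and clustered sites were not simulated. Python 3.11.15, numpy 2.4.6, scipy 1.17.1, pandas 2.3.3 and matplotlib 3.10.9 were used. All regions and sites in the windows were accounted for, those with at least 50 H3K4me3 reads or in the top 25% by excess in full. The genes, windows, lists and rules were chosen with earlier results of these data known. Preset lists of marker and pathway genes were not run, because no mm9 annotation was used.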

Additional observations from a re-analysis of the deposited data

How the results depend on the processing

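The internal Sbno2 region stayed lower past the size rule under each alternative that gave a value with an interval. These were library totals, no read shift, calling on the wild-type library alone and densest 1 kb. The subtracted background gave a log2 ratio of -3.41 without an interval, so only the 2-fold part of the rule could be judged, and was met. With that value included, the log2 ratios lay between -3.41 and -2.30. Called on the STAT3-deficient library alone, no region was found there, so that alternative gave no value. Against the first Sbno2 start, its log2 ratio of ratios ran between -2.69 and -1.81. The Mir21 region turned to a log2 ratio of 0.20 by library totals, with no call under any alternative. At a Poisson threshold of 1e-12, phospho-STAT3 sites numbered 1 in the Sbno2 window, against 3, and 6 in the Vmp1-Mir21 window, against 9. The strong Sbno2 site was 15.2-fold over the local density with 300 bp windows and 13.5-fold with that density taken over 5 kb. The strongest Vmp1 site held 187 reads (24.0-fold) without the read shift, and was 21.2-fold and 15.7-fold over the local density with those other settings. Over the genome, library totals gave 54 lower and 319 higher regions, against 127 and 111. Only 22 regions were lower when regions came from the STAT3-deficient library, and only 12 higher when they came from the wild-type library. Library totals add the same 0.32 log2 units to every ratio. Regions called on 1 library need enough reads in that library, so regions with little mark there are missed. Nothing further was tested about these shifts. Against the genome-wide density alone, an alternative chosen after seeing the data, the Sbno2 window held 12 sites and the Vmp1-Mir21 window 25. No paired analysis was possible because each group had 1 library.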

Other observations

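Judged against the genome-wide density alone, an alternative added after the data were seen, 17 phospho-STAT3 sites lay within 15 kb of Mir21, against 5 with the local density. The same change gave 12 sites in the Sbno2 window, against 3, and 50496 over the genome, against 27067, so the rise was not particular to Mir21. No input library was used, and the part of raised background in these added sites was not tested.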
